A study of Mus musculus with 9 samples.

Results

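The interferon-stimulated genes described here are 9 genes of rat liver, Irf7, Isg15, Usp18, Ifit2, Ifit3, Oas1a, Mx1, Mx2 and Rsad2. They were chosen by symbol, and all 9 were found among the 19686 genes of the deposited count table. Hepatic RNA of 9 male Wistar rats was sequenced, 3 rats each in the control, model and DSS groups, one library per rat. The age of the rats is not given in the sources used here, and the label for the organism reads mouse, although strain and gene identifiers belong to the rat. Control rats drank purified water and received saline by gavage. Model rats drank 15% fructose (w/w) and received saline for 8 weeks. DSS rats drank the same fructose and received 1.8 g/kg of an extract of Danggui-Shaoyao-San, a formula of several herbs. The study's methods state that the 50% methanol extract was the one taken to transcriptomics. All rats were fasted for 12 h before the liver was taken, so the levels are those of fasted liver. The model is a diet given to healthy rats, and no group received a virus or an interferon.

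Interferons are cytokines that cells release when they sense viral nucleic acid. Type I interferon binds the receptor chains Ifnar1 and Ifnar2, and the kinases Jak1 and Tyk2 then activate transcription factors of the STAT family, among them Stat2, which enters the nucleus with Irf9 in the complex ISGF3. ISGF3 binds a promoter element, the interferon-stimulated response element, and turns on antiviral genes. In uninfected liver these genes are kept at low but measurable levels by weak tonic signalling, in hepatocytes as well as in Kupffer cells and endothelial cells.

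The response element carries the letters GAAA repeated after a gap of 2 bases. It is shown here as background, and its part in the levels of these rats was not tested. Sequences of the rat were not analysed here. The promoters at hand are those of the mouse genes with the same symbols (RefSeq, GRCm38.p6, from 250 bases before to 50 bases after the gene start). Of the 9 symbols, 6 had an entry, and the letters GAAA, any 2 bases, GAAA, or on the other strand TTTC, any 2 bases, TTTC, were found in 4 of them, Isg15, Ifit3, Oas1a and Rsad2. Of all 32851 mouse promoter windows of the same length, 3.44% hold a match. Neighbouring matches may overlap, as the 3 in Isg15 and the 2 in Oas1a do. Each sequence is given 5′ to 3′ on the strand of its gene, with the matched letters in capitals, and none of them was measured in these rats.
Mouse Isg15 (chr4:156200871-156200900, minus strand): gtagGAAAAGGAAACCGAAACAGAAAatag
Mouse Ifit3, first match (chr19:34583363-34583392, plus strand): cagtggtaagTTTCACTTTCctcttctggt
Mouse Ifit3, second match (chr19:34583397-34583426, plus strand): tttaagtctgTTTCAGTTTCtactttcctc
Mouse Oas1a (chr5:120907526-120907555, minus strand): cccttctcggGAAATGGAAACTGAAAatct
Mouse Rsad2 (chr12:26456553-26456582, minus strand): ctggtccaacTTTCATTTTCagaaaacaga
In the mouse windows the matches lay between 5 and 156 bases before the gene start. The mouse windows of Irf7 and Ifit2 hold no match, which says only that these letters are not in those stretches.

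Total counts ranged from 14345819 to 26837227 per library. All 7 hepatocyte markers were present, with summed levels from 139300 to 224500 CPM (the gene's counts relative to the library's total, scaled with edgeR's TMM factors). CPM are not divided by transcript length, so the levels of different genes are not compared with each other. Pairs of rats within a group differed by more than counting error, with a chi-square per gene from 19.6 to 72.8, and a value near 1 would be counting error. Between 21 counts (Rsad2, control replicate 3) and 1093 counts (Irf7, control replicate 1) stood behind each value of the 9 genes. In bulk liver RNA, fewer cells of a type and less RNA per cell cannot be told apart.

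Irf7 encodes the transcription factor that amplifies the type I interferon response. It was at 43.8, 18.7 and 17.7 CPM in control replicates 1, 2 and 3. In the model rats it was at 19.7, 39.1 and 15.99 CPM, and in the DSS rats at 28.1, 14.96 and 20.9 CPM. One control rat and one model rat stood at about the same high level, the other rats lay lower, and the 3 groups overlapped. The group means were 26.7 ± 14.8 CPM in control, 24.95 ± 12.4 CPM in model and 21.3 ± 6.60 CPM in DSS (SD, n = 3 rats each).

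**Figure D1:**
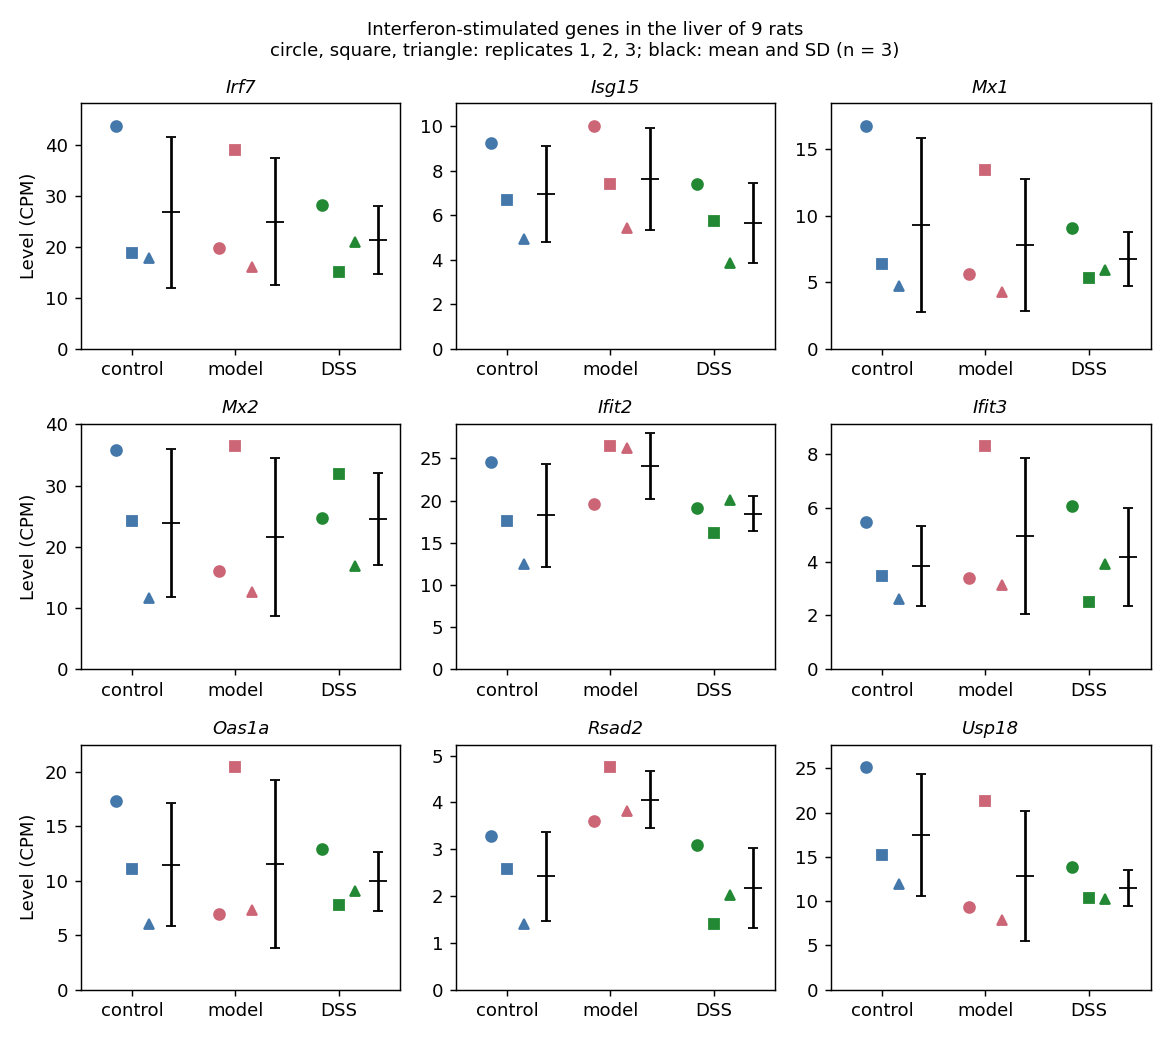
Level of each of the 9 genes in CPM (y axis, from 0) in each rat of the control, model and DSS groups (x axis), with circles, squares and triangles for replicates 1, 2 and 3 and the mean with SD in black. Control replicate 1 and model replicate 2 are high in most panels, and Rsad2 is the one panel in which every model rat lies above all other rats.

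Isg15 encodes a ubiquitin-like protein that is attached to other proteins, and Usp18 encodes the protease that removes it and also damps signalling at Ifnar2. Isg15 was at 9.22, 6.69 and 4.93 CPM in control, 10.02, 7.40 and 5.43 CPM in model and 7.40, 5.72 and 3.83 CPM in DSS rats, in the order of their replicate numbers. Its highest rat was model replicate 1, which was not among the highest rats for most of the other genes. Usp18 was at 25.2, 15.2 and 11.99 CPM in control, 9.34, 21.3 and 7.90 CPM in model and 13.8, 10.3 and 10.3 CPM in DSS rats. Apart from model replicate 2, every rat that drank fructose was below control replicate 2, and the groups still overlapped.

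Ifit2 and Ifit3 encode proteins with tetratricopeptide repeats that bind foreign RNA complexes and limit translation, and Oas1a encodes an enzyme that makes oligoadenylates on double-stranded RNA and so activates RNase L. Ifit2 was at 24.6, 17.6 and 12.5 CPM in control, 19.6, 26.4 and 26.3 CPM in model and 19.2, 16.1 and 20.1 CPM in DSS rats. It varied least of the 9 genes, by 2.11-fold between the highest and the lowest rat. Ifit3 was at 5.49, 3.46 and 2.598 CPM in control, 3.38, 8.30 and 3.15 CPM in model and 6.09, 2.48 and 3.93 CPM in DSS rats. Oas1a was at 17.3, 11.1 and 5.996 CPM in control, 6.94, 20.5 and 7.28 CPM in model and 13.0, 7.78 and 9.10 CPM in DSS rats. For both Ifit3 and Oas1a, model replicate 2 was the highest rat and the groups overlapped. Oas1a belongs to a tandem family of near copies, so reads may have been divided among them.

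Mx1 and Mx2 encode dynamin-like GTPases that trap viral ribonucleoproteins. Mx1 was at 16.8, 6.39 and 4.73 CPM in control, 5.57, 13.5 and 4.26 CPM in model and 9.03, 5.29 and 5.89 CPM in DSS rats. It varied most of the 9 genes, by 3.93-fold between control replicate 1 and model replicate 3. Mx2 was at 35.8, 24.3 and 11.7 CPM in control, 15.98, 36.4 and 12.5 CPM in model and 24.7, 31.9 and 16.9 CPM in DSS rats. DSS replicate 2 parted the pair, being behind only model replicate 2 and control replicate 1 for Mx2 and above only control replicate 3 and model replicate 3 for Mx1. It had 6.03 counts of Mx2 for each count of Mx1, where the other 8 rats had between 2.13 and 3.79. The pair are similar in sequence, and gene counts do not show how shared reads were assigned.

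Rsad2 encodes viperin, a radical SAM enzyme of the endoplasmic reticulum and lipid droplets with antiviral activity. It was at 3.29, 2.57 and 1.40 CPM in control, 3.60, 4.76 and 3.83 CPM in model and 3.10, 1.40 and 2.02 CPM in DSS rats. Each model rat was above each rat of the other groups, which was true of no other gene of the 9. The values rest on 21 to 84 counts per library.

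The comparison of the model with the control group asks what fructose drinking did to these genes. The 9 genes did not move together, with 4 higher and 5 lower in the model group and a median log2 fold change of -0.01, beside -0.001 over all 12486 genes tested. None of the 9 was differential by edgeR's quasi-likelihood test (0.5 or more on the log2 scale in either direction, with an FDR, the Benjamini-Hochberg adjusted p, no higher than 0.01), where 0.0801% of all genes were. At an unadjusted p under 0.05 the count was also 0, against 13.2% of all genes, and DESeq2 called 0 as well (2.05% of all genes), with 0 at an unadjusted p under 0.05 (13% of all genes). Rsad2 had the largest fold change, 0.73 on the log2 scale (standard error 0.332, 95% interval -0.03 to 1.49, FDR 0.4 from edgeR). Ifit2 followed the same direction at 0.40 (interval -0.17 to 0.96), while Usp18 was at -0.46 (interval -1.40 to 0.48). Rsad2 was 1 of 9 genes in which every model rat was higher, and 11.1% of all genes had that order, so the count is near the background. In none was every model rat lower, an order found in 9.94% of all genes. Without control replicate 1 the fold changes of Irf7, Mx1, Mx2 and Oas1a turned from -0.11, -0.29, -0.16 and -0.01 to 0.45, 0.47, 0.27 and 0.43. Without model replicate 2 that of Ifit3 turned from 0.33 to -0.25.

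**Figure D2:**
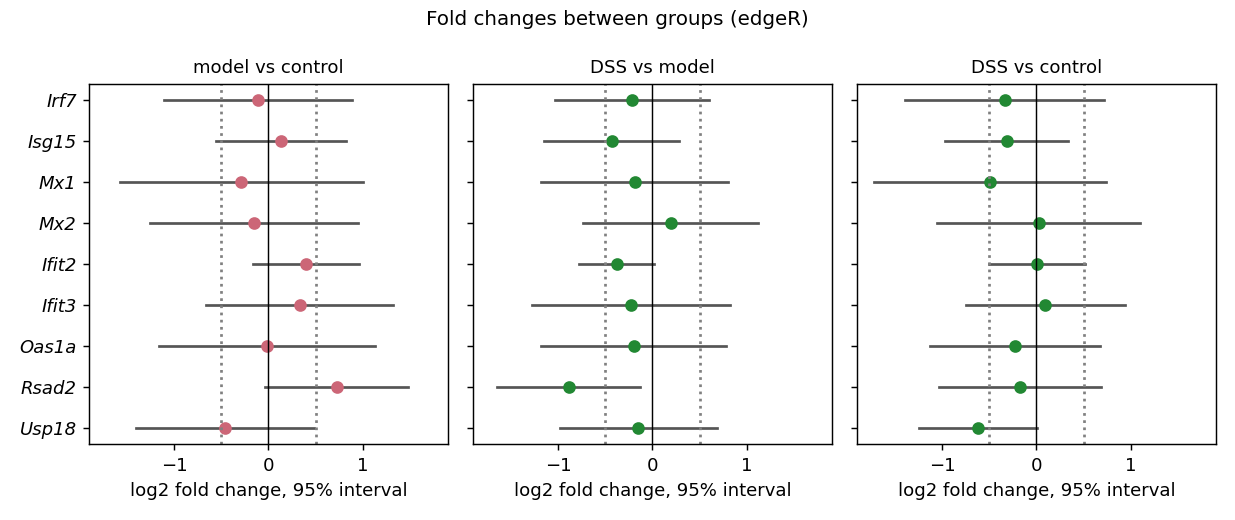
Log2 fold change (x axis) with its 95% interval from edgeR for each of the 9 genes (y axis) in the 3 comparisons, the first-named group over the second, with dotted lines at -0.5 and 0.5. Of the 27 intervals only that of Rsad2 between DSS and model leaves out 0.

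Between the DSS and model groups, which differ in the extract alone, 8 of the 9 genes had a lower mean in the fitted model and Mx2 a higher one. The median log2 fold change was -0.21, beside 0.0008 over all 12502 genes tested, of which 49.9% were lower. None of the 9 was differential with edgeR (background 0.136% of all genes) or with DESeq2 (1.18%). At an unadjusted p under 0.05, 1 of the 9 was found with either tool, against 8.02% of all genes with edgeR and 7.81% with DESeq2. This was Rsad2, at -0.89 on the log2 scale (standard error 0.328, 95% interval -1.64 to -0.14, FDR 0.546 from edgeR), a fitted mean 0.54 times that of the model group. It was also the 1 gene of the 9 in which every DSS rat was below every model rat, an order found in 7.86% of all genes, and in none was every DSS rat higher (6.17% of all genes). Ifit2 was at -0.38 (interval -0.78 to 0.02) and Isg15 at -0.43 (interval -1.15 to 0.29). The share of lower genes rested on model replicate 2. Without this rat Irf7, Mx1, Ifit3, Oas1a and Usp18 turned to 0.25, 0.45, 0.35, 0.48 and 0.41, while Rsad2 and Ifit2 stayed below 0 with any one rat left out (-1.24 to -0.66 and -0.51 to -0.29).

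Between the DSS and control groups, 6 of the 9 genes were lower and 3 higher, with a median log2 fold change of -0.22 beside -0.01 over all 12633 genes tested, of which 49.1% were higher. This comparison called more genes than the others (1.48% of all genes), but none of the 9, with edgeR or with DESeq2 (6.09% of all genes). No gene of the 9 had an unadjusted p under 0.05 with edgeR, where 24.3% of all genes did, and 1 had with DESeq2, where 22.4% did. Usp18 came nearest, at -0.62 (standard error 0.27, 95% interval -1.24 to 0.004, FDR 0.209 from edgeR), and with DESeq2 it was at -0.61 (unadjusted p 0.0279, FDR 0.154). Rsad2 was at -0.18 (interval -1.04 to 0.68) and Ifit2 at 0.01 (interval -0.51 to 0.52). Without control replicate 1, Irf7, Mx1, Oas1a and Rsad2 turned to 0.22, 0.27, 0.21 and 0.12. No gene of the 9 separated every DSS rat from every control rat, where 30.2% of all genes did. The 3 comparisons share their control or model libraries, and the fold changes of a gene in them are not independent.

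The rats of a group differed widely in these genes. Over the 9 genes the SD of log2 CPM between rats of a group, pooled over the groups, ranged from 0.33 (Ifit2) to 0.78 (Mx1) with a median of 0.63. The median was 0.25 over the 5775 genes whose mean level lay in the same range, from 2.88 to 24.3 CPM. Mx1, Mx2, Oas1a, Ifit3, Irf7 and Usp18 each had a larger SD than at least 91% of those genes, and Ifit2 a larger SD than 68.5%. The larger spread was seen in each group. The median SD of the 9 genes was 0.62 in control, 0.76 in model and 0.46 in DSS rats, where genes of the same range had medians of 0.18, 0.28 and 0.20. For 5 of the 9, Irf7, Mx1, Mx2, Ifit3 and Oas1a, group membership held between 0.615% and 4.44% of the variance of log2 CPM over the 9 rats, beside a median of 33% over all genes tested in every comparison. For Rsad2 the share was 51.6%, for Ifit2 34.7% and for Usp18 23.2%.

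**Figure D3:**
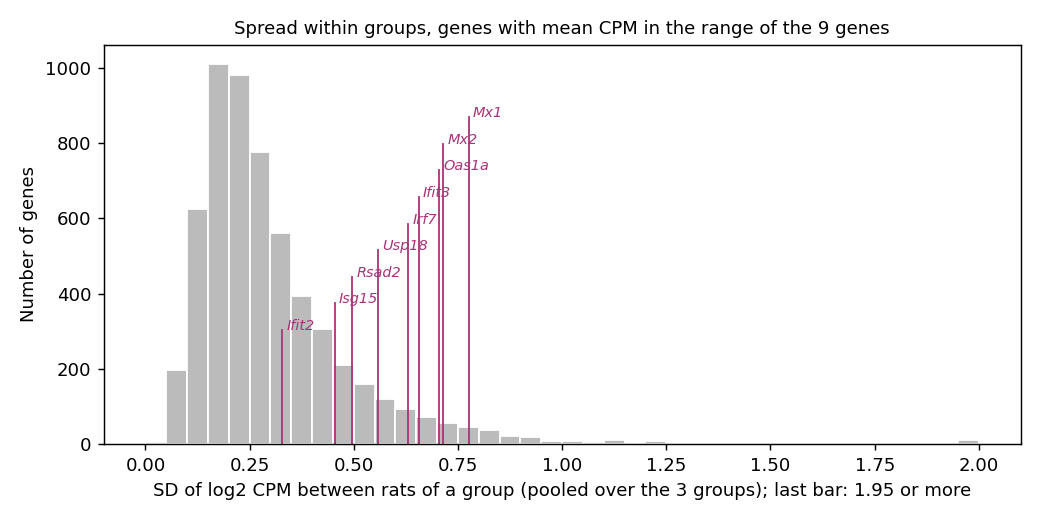
Number of genes (y axis) by the SD of log2 CPM between rats of a group (x axis) for the 5775 genes in the CPM range of the 9 genes, with the 9 genes marked by lines. Ifit2 lies near the bulk of the genes at 0.33, and Mx1 lies farthest out of the 9 at 0.78.

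The rats differed along the same line for most of the genes. Model replicate 2 and control replicate 1 were above the mean of the 9 rats in all 9 genes, by a median of 0.79 and 0.73 on the log2 scale, and control replicate 3 was below it in all 9, by a median of 0.61 below. Model replicate 2 was the highest rat for 5 genes, control replicate 1 for 3 and model replicate 1 for 1. Control replicate 3 was the lowest for 4. Across the 9 rats all 36 pairs of genes had a Pearson r above 0, with a median of 0.6 and a range from 0.23 (Mx2 with Rsad2) to 0.973 (Irf7 with Mx1). The median Spearman rho was 0.575. Without model replicate 2 and control replicate 1, the median r over the other 7 rats was 0.344, from -0.533 to 0.94, and 31 of the 36 pairs were above 0, so the common order rested in part on those rats. These values are a description over rats that share groups and libraries. After the group means were taken out, the median r was 0.761.

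**Figure D4:**
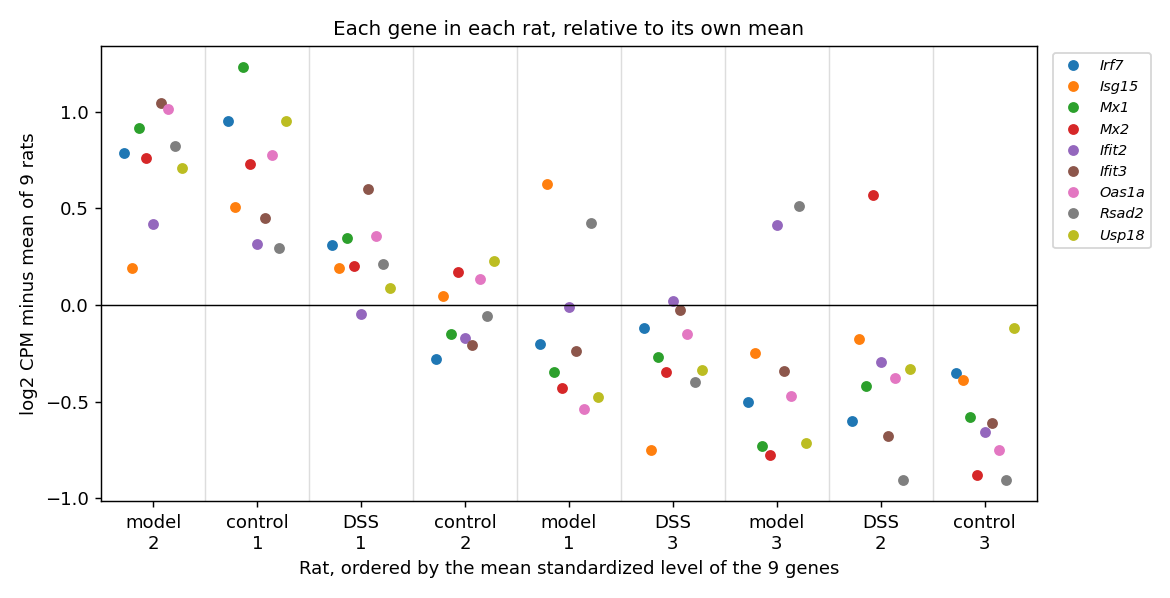
Log2 CPM of each gene minus its own mean over the 9 rats (y axis) in each rat (x axis), with rats ordered by the mean standardized level of the 9 genes and each gene in its own colour. All 9 points lie above 0 in model replicate 2 and control replicate 1 and below 0 in control replicate 3, and Mx2 stands alone above 0 in DSS replicate 2.

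Of 7 marker lists of non-parenchymal and immune cells, 4 had their highest sums in control replicate 1 and model replicate 2, and the stellate, neutrophil and cholangiocyte lists did not. The summed level of the 11 Kupffer cell and macrophage markers in the table was 906 CPM in control replicate 1 and 753 CPM in model replicate 2, and 343 to 654 CPM in the other 7 rats. The 5 sinusoidal endothelial markers summed to 283 and 313 CPM in these rats, against 122 to 247 CPM in the others. The 12 lymphocyte markers summed to 56.6 and 52.4 CPM, against 25.7 to 42.9 CPM, and the 8 dendritic cell markers to 13.8 and 15.1 CPM, against 6.04 to 9.79 CPM. The stellate sum was 98.8 CPM in control replicate 1 and 131 CPM in model replicate 2, against 77.3 to 121 CPM in the others. The neutrophil sum was 2.77 and 4.31 CPM, against 1.67 to 4.91 CPM, and the cholangiocyte sum was lowest in these rats, at 14.9 and 13.5 CPM, against 18.9 to 27.7 CPM. No marker of these lists was at 0 in all rats, although Siglech, a marker of plasmacytoid dendritic cells, had no count in model replicate 1 and DSS replicate 3. By group, the Kupffer cell and macrophage sum ranged from 458 to 906 CPM in control, 343 to 753 CPM in model and 483 to 654 CPM in DSS rats, and the endothelial sum from 168 to 283, 122 to 313 and 184 to 247 CPM. Control replicate 3, the lowest rat for the 9 genes, was not low in the macrophage sum, at 618 CPM. The part of these cells in the levels of the 9 genes was not tested.

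The other genes of the pathway came from lists of 158 genes ordered by role, of which 137 were in the table. Of 12 listed ligands 3 were in the table, Ifna4, Ifne and Ifnk, with 0 to 2 counts in any library, and none passed the filter on low counts. The other listed ligands, Ifnb1 and Ifng among them, were not found by symbol, so their level is unknown. The 5 receptor chains tested were all higher in the model than in the control group, with a median log2 fold change of 0.22, but none had an unadjusted p under 0.05 with edgeR (lowest FDR 0.5). All 5 were higher in the DSS than in the control group, with a median of 0.20 and 2 at an unadjusted p under 0.05. Of all genes, 49.9% and 49.1% were higher in these comparisons, and 13.2% and 24.3% had an unadjusted p under 0.05 with edgeR. Ifnar2, the chain that binds Usp18, was at 28.8 ± 3.39 CPM in control, 33.6 ± 3.66 CPM in model and 43.1 ± 5.22 CPM in DSS rats, and its log2 fold change between DSS and control was 0.58 (FDR 0.0323 from edgeR), past an FDR of 0.05 and not of 0.01. Every DSS rat was above every control rat, an order found in 14.9% of all genes. Ifnar1 was at 33.5 ± 2.91, 39.2 ± 6.24 and 45.1 ± 3.58 CPM, with a fold change of 0.42 (FDR 0.0506).

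Among the genes that carry the signal, Stat2 was at 115 to 118 CPM in control and 84.2 to 101 CPM in the other groups, so that all fructose-drinking rats lay lower. Of all genes, 9.94% had every model rat and 15.2% every DSS rat below every control rat. The fold changes of Stat2 were -0.37 in the model group (FDR 0.253) and -0.30 in the DSS group (FDR 0.119). Of the sensors and adaptors that induce interferon, 11 of 14 tested were lower in the model group and 13 of 15 in the DSS group against control, beside 50.1% and 50.9% of all genes. Aim2, in both tallies, and Zbp1, in the second, had at most 30 and 35 counts in any library. Neither passed the filter on low counts between DSS and model. They passed it against control partly through their control rats, so their direction there is not counted as a result. Mavs, the mitochondrial adaptor of the RNA sensors, was at 39.4 ± 2.48 CPM in control, 29.2 ± 1.04 CPM in model and 29.9 ± 0.343 CPM in DSS rats. Its fold change between DSS and control was -0.40 (FDR 0.0455), smaller than the minimum of 0.5. In the model group it was -0.43 (FDR 0.18).

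Of the other regulators, Irf2, which opposes Irf1 at response elements, was at 22.1 ± 1.64, 23.9 ± 3.65 and 33.4 ± 4.18 CPM in control, model and DSS rats, with a fold change of 0.59 between DSS and control (FDR 0.0265 from edgeR). Socs3, a feedback inhibitor of JAK kinases, was at 32.8 CPM in model replicate 2 and 10.8 CPM in DSS replicate 1, and between 1.85 and 4.13 CPM in the other rats. These rats held ranks 1 and 3 in the mean standardized level of the 9 genes. Herc6, a ligase for ISG15, was at 28.1 CPM in control replicate 1 and between 4.03 and 10.6 CPM in the rest, and model replicate 2 did not stand out. Uba7, the activating enzyme for ISG15, had a fold change of -0.70 between DSS and control (FDR 0.108).

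In the list of further interferon-stimulated genes, Lgals9 was the single pathway gene past both thresholds in any comparison. It encodes galectin-9, a sugar-binding protein that interferon induces. It was at 122, 128 and 124 CPM in control, 145, 164 and 146 CPM in model and 84.8, 80.0 and 83.7 CPM in DSS rats, and the 3 groups did not overlap. Of all genes, 11.1% had every model rat above every control rat. Every DSS rat was below every model rat in 7.86% and below every control rat in 15.2%. Lgals9 differed between DSS and control by -0.59 on the log2 scale (standard error 0.0957, FDR 0.00948 from edgeR), and between DSS and model by -0.86 (standard error 0.123, FDR 0.0336), past an FDR of 0.05 only. Model replicate 2 and DSS replicate 1 were the highest of their groups, as for most of the 9 genes, while control replicate 1 was the lowest control rat. Over the 9 rats its r with the mean standardized level of the 9 genes was 0.312, and 0.531 after the group means were taken out. Over the alternatives the FDR ranged from 1.53e-05 to 0.0374 against control and from 1.01e-06 to 0.201 against model, and the call against control was lost when any one of the 6 rats was left out.

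Also lower in DSS than in control rats at an FDR of 0.05 were Sp110 (-0.71, FDR 0.0184 from edgeR), a nuclear body protein, and Slfn4 (-0.92, FDR 0.0258), and Mov10, an RNA helicase, was higher (0.65, FDR 0.0363). In all, 7 of 126 pathway genes tested passed an FDR of 0.05 with the minimum fold in that comparison, 3 higher and 4 lower, Gbp3 among the latter, and 1 of them passed 0.01, beside 6.36% and 1.48% of all genes. At an unadjusted p under 0.05 there were 29 of 126, beside 24.3% of all genes. Between DSS and model the counts were 1 and 0 of 123, beside 0.456% and 0.136% of all genes. The count at an unadjusted p under 0.05 was 8, beside 8.02%, and DESeq2 called 1, beside 1.18%. Between model and control they were 0 and 0 of 126, beside 0.601% and 0.0801%. Here 14 had an unadjusted p under 0.05, beside 13.2%, and DESeq2 called 0, beside 2.05%. Gbp3, a guanylate-binding GTPase, had 21, 13 and 11 counts in the control rats and 0 to 3 counts in each of the 6 fructose-drinking rats. It passed the filter on low counts only through the control rats, so it could pass only by differing, and no fold or FDR is given. Gbp3 is included in the counts of 7, 29 and 14 above, and its place in them is not a result. Without it, the lower genes at an FDR of 0.05 between DSS and control were Lgals9, Sp110 and Slfn4.

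The OAS family and RNase L form the list nearest to Oas1a in role. Oasl was at 5.73 CPM in model replicate 2, 4.73 CPM in control replicate 1 and 3.37 CPM in DSS replicate 1, the same 3 highest rats in the same order as for Oas1a. Oasl2, an OAS-like protein, was at 7.26, 4.48 and 4.40 CPM in control, 3.98, 5.15 and 1.67 CPM in model and 3.70, 2.86 and 3.00 CPM in DSS rats, so that every DSS rat was below every control rat (15.2% of all genes). Its fold change between DSS and control was -0.77 (FDR 0.0968 from edgeR). Oas1k lay within 2.51 to 4.25 CPM in all rats, with a fold change of 0.20 in the model group (FDR 0.796). Of 6 genes of the OAS and RNase L list tested, 3 were lower in the model group and 4 in the DSS group against control. The shares over all genes were 50.1% and 50.9%, and no gene of the list passed an FDR of 0.05. Oas3, in both tallies, had at most 35 counts in any library and did not pass the filter on low counts between DSS and model. It passed against control partly through its control rats, so its direction there is not counted as a result.

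Ifi27 and Ifi27l2b, of the further interferon-stimulated genes, had a different highest rat from most of the 9. Ifi27 was at 421 to 514 CPM in control, 449 to 662 CPM in model and 344 to 471 CPM in DSS rats, and model replicate 1, not model replicate 2, was its highest rat. Ifi27l2b was at 164 to 213, 176 to 246 and 121 to 177 CPM and was also highest in model replicate 1, as Isg15 was. The fold changes between DSS and model were -0.36 for Ifi27 (FDR 0.733 from edgeR) and -0.48 for Ifi27l2b (FDR 0.575). Irf1, a transcription factor that activates many of these genes, was at 17.7 to 25.2 CPM in control, 13.8 to 24.1 CPM in model and 11.01 to 16.5 CPM in DSS rats, with a fold change of -0.59 between DSS and control (FDR 0.0945).

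Ifit1, the neighbour in function of Ifit2 and Ifit3, behaved unlike them. It had 573 counts in control replicate 1 and 44 to 72 counts in control replicates 2 and 3, model replicates 1 and 3 and DSS replicate 2. It had 0 counts in model replicate 2 and DSS replicate 1 and 3 counts in DSS replicate 3. Model replicate 2 and DSS replicate 1 were the highest rats for Ifit3. A count of 0 allows up to 3 counts, and reads of near copies such as Ifit1bl, at 7 to 21 counts, may have been assigned between the genes.

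Genes of the interferon gamma response and antigen presentation were lower in the model group in 21 of 28 cases tested, with a median log2 fold change of -0.33, beside 50.1% of all genes. In the DSS group against control 22 of 28 were lower, with a median of -0.28, beside 50.9%. Control replicate 1 was the highest rat for Cd74, RT1-Bb, RT1-Da, Ciita, Nlrc5 and Gbp2, and it also had the highest macrophage and lymphocyte marker sums, whose part was not tested. Control replicate 3, the lowest rat for the 9 genes, was also above every fructose-drinking rat for Cd74, RT1-Bb, RT1-Da and Nlrc5, though not for Ciita and Gbp2. For Cd74 it was at 191 CPM, against 54.9 to 148 CPM in those rats. Control replicate 2 was not above them, at 77.0 CPM for Cd74, and lay within their range for each of these genes. None of the list passed both thresholds or an FDR of 0.05 with edgeR, with 4, 0 and 5 genes at an unadjusted p under 0.05 in model against control, DSS against model and DSS against control, beside 13.2%, 8.02% and 24.3% of all genes. B2m, the light chain of MHC class I, went the other way at 0.36 in the model group (FDR 0.524). Cxcl10, a chemokine induced by interferon, was at 8.36 CPM in model replicate 2 and between 0.836 and 3.16 CPM in the other rats. Every model rat was above every control rat for Cxcl10, an order found in 11.1% of all genes. Its log2 fold change in the model group was 1.59 (FDR 0.27 from edgeR), the largest of the list and upward. Cxcl9 was at 53.6 CPM in control replicate 1 and 33.0 CPM in model replicate 2, and between 10.1 and 19.96 CPM in the rest. Between the DSS and model groups the list was even, with 14 of 28 genes higher. DESeq2 called 0 genes of this list in each comparison. RT1-Ba, an MHC class II chain, had one of the 2 largest fold changes of the list, -1.42 between DSS and control (FDR 0.345), with 2.99 to 26.1 CPM in the control rats alone.

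**Figure D5:**
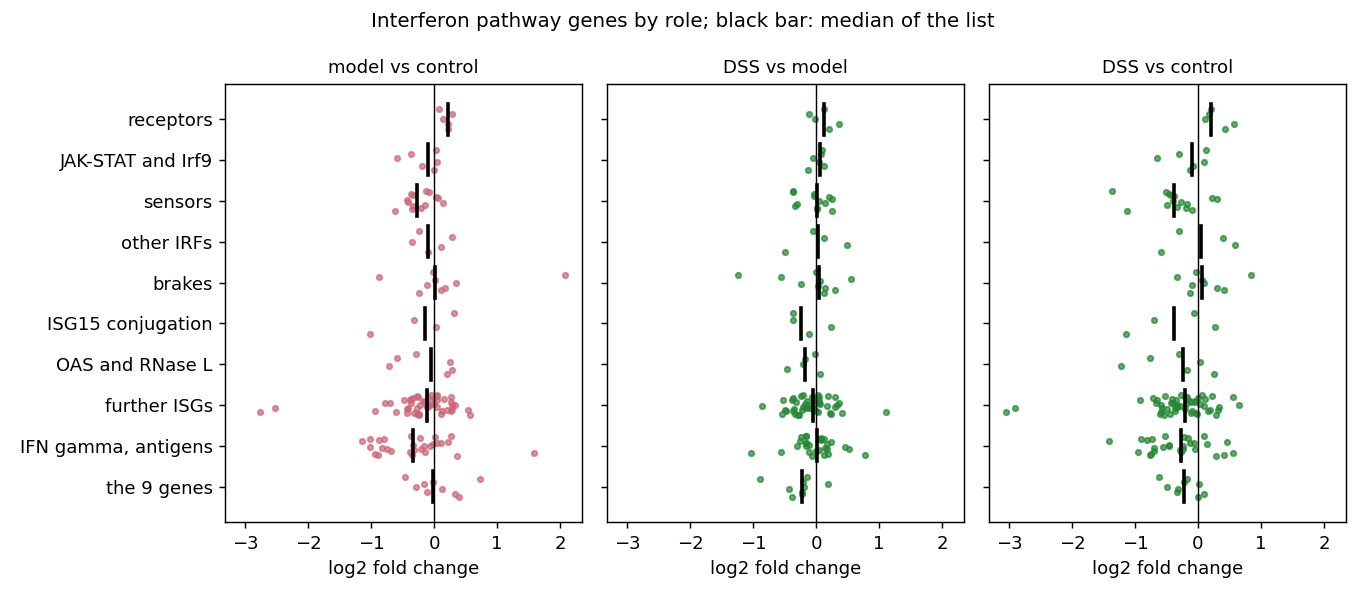
Log2 fold change (x axis) of each pathway gene tested, by role (y axis), in the 3 comparisons, with the 9 genes in the bottom row and the median of each list as a black bar. The medians lie within 0.4 of 0 in every list, and the interferon gamma list is centred at -0.33 in the model group.

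Of the 10 genes whose level followed the 9 most closely, 4 belonged to the pathway lists. Among 10090 other genes with a mean count of at least 50, likeness was taken as the Pearson r over the 9 rats with the mean standardized log2 CPM of the 9 genes, so the leading values are the highest of many. Irf9, the DNA-binding subunit of ISGF3, came first at r = 0.928 (Spearman rho 0.917, r 0.716 without model replicate 2 and control replicate 1). It was at 29.8 CPM in control replicate 1 and 33.6 CPM in model replicate 2 and between 18.6 and 25.1 CPM in the other 7 rats. Cmpk2 (r 0.898), a mitochondrial nucleotide kinase, Znfx1 (0.891), an RNA helicase, and Oasl (0.889), an OAS-like protein, were the other pathway genes of the first 10. Cmpk2 was at 6.01 and 5.53 CPM in these rats and between 1.62 and 4.14 CPM in the others. Outside the pathway lists were, among others, Cyp2c12 (0.856), a cytochrome P450 known for its female-predominant level in rat liver, Pcdh18 (0.855), Klhl13 (0.844) and the genes listed as AABR07045485.1 and AABR07059663.1 (0.872 and 0.855). Cyp2c12 ranged from 4.45 to 46.4 CPM and was highest in control replicate 1 and next in model replicate 2, and reads of its near copies may be shared. Of the 111 pathway genes among the candidates 8 had an r of at least 0.8, beside 0.287% of all candidates. The median r was 0.372 over these pathway genes, beside -0.008 over all candidates.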

How the data were processed

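Liver poly(A) RNA of 9 rats was sequenced. The authors aligned the reads to Rnor_6.0 with HISAT2 and counted them on exons without regard to strand with HTSeq 0.6.1 (build and HTSeq version per the submitters' processing notes), and they deposited raw counts per gene without normalization. Reads of overlapping genes and of near copies are thus not separable. The values of newly assembled transcripts, also deposited, have no stated unit and were not used.

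Groups and replicate numbers were taken from the sample titles. Each comparison was fitted across all genes on its own 6 libraries with edgeR 4.0.16 (R 4.3.3), with filterByExpr, TMM normalization, robust glmQLFit and the two-sided glmQLFTest with Benjamini-Hochberg adjustment (FDR). All 9 genes passed the filter in each comparison. Intervals are 95% intervals from the fitted standard error. CPM were scaled over all 9 libraries, and log2 CPM used a prior count of 1. With 3 rats per group the smallest p of an exact permutation test is 0.1. The fits were tested on simulated data. DESeq2 1.42.0 and the other alternatives are given below with their effect.

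The members and lists were chosen with earlier results of these data known. The genes named are the 9 members, pathway genes at an FDR of at most 0.05, the 2 of highest level and the 2 of largest fold change per list, and the 10 genes most alike. Some of these genes are not reported here. Ifit1bl, Cxcl9, Siglech, Cd74, RT1-Bb, RT1-Da, Ciita, Nlrc5, Gbp2, Ifna4, Ifne and Ifnk were named after their values were seen. Same-numbered rats of different groups did not deviate together (r from -0.236 to -0.0181), so the numbers were not taken as pairs. edgeR stands here in place of DEGseq and DESeq, the tools of the study's methods.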

Additional observations from a re-analysis of the deposited data

How the results depend on the processing

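The count of the 9 genes past both thresholds was 0 in each comparison under every alternative run: DESeq2 as the test or for size factors only, scaling by library size alone, a filter removed or set to 10 counts in every library, all 9 libraries in one fit, the replicate block, an FDR limit of 0.05, any fold change, and the omission of each rat (lowest FDR without a rat 0.103, Usp18 between DSS and control). Of 351 single-gene fold changes recomputed, 40 changed sign, 35 of them on leaving out a rat, and 0 became differential. With library size alone, which moved the median of all genes by -0.146 in model against control and -0.136 in DSS against control, Isg15 turned to -0.047 in the first, and Mx2, Ifit2 and Ifit3 to -0.12, -0.15 and -0.062 in the second. With DESeq2, Oas1a was at 0.00135 in model against control. On omitting one rat, the fold changes that turned ranged in model against control from -0.59 to 0.45 (Irf7), -0.14 to 0.39 (Isg15), -0.93 to 0.47 (Mx1), -0.75 to 0.27 (Mx2), -0.25 to 0.70 (Ifit3) and -0.70 to 0.43 (Oas1a), in DSS against model from -0.47 to 0.25 (Irf7), -0.47 to 0.45 (Mx1), -0.078 to 0.78 (Mx2), -0.61 to 0.35 (Ifit3), -0.47 to 0.48 (Oas1a) and -0.40 to 0.41 (Usp18), and in DSS against control from -0.58 to 0.22 (Irf7), -0.79 to 0.27 (Mx1), -0.30 to 0.44 (Mx2), -0.20 to 0.29 (Ifit2), -0.28 to 0.45 (Ifit3), -0.52 to 0.21 (Oas1a) and -0.51 to 0.12 (Rsad2). For the other pathway genes, the 1 call between DSS and control (Lgals9) became 0 with DESeq2's size factors, with all 9 libraries in one fit and with the replicate block, 5 with no filter, 6 with DESeq2 and 7 at an FDR of 0.05, and 0 to 1 with a rat left out. The call was then Slfn4 without DSS replicate 1, and none without DSS replicate 2 or 3 or control replicate 1, 2 or 3. The 0 calls between DSS and model became 1 (Lgals9) with DESeq2, with all 9 libraries in one fit and at an FDR of 0.05. The causes were not tested. Depth limits Rsad2 most, which had 21 to 84 counts per library.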

Other observations

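A ratio of counts within a library does not depend on scaling. Of the 36 ratios between the 9 genes, 7 separated every model rat from every control rat, 5 of them ratios to Usp18. For each count of Usp18 there were 1.23 to 1.74 counts of Irf7 in the control rats and 1.84 to 2.11 in the model rats, the high rats of both groups included. For Ifit3 the range was 0.217 to 0.227 in control, 0.362 to 0.398 in model and 0.241 to 0.441 in DSS rats. Between DSS and control 4 of the 36 separated the groups, all 4 ratios to Usp18. Between DSS and model 4 did, all 4 ratios to Rsad2, such as Irf7, with 9.07 to 10.7 counts for each count of Rsad2 in DSS and 4.18 to 8.22 in model rats. Of single genes 21.1%, 30.2% and 14% separated the groups in model against control, DSS against control and DSS against model. The counts of 36 were below these shares in each comparison, and the share over ratios of other genes was not taken. Ratios that share a gene are not independent, they were formed after the values were seen, and no test was made.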
